A study of Homo sapiens with 3 samples.

Results

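Genes known as targets of the tumour suppressor p53 that halt the cell cycle or feed back on p53 itself were described in BEAS-2B cells exposed to MTX. These 10 genes are CDKN1A, MDM2, PPM1D, BTG2, CCNG1, PLK2, PLK3, GADD45A, PHLDA3 and TRIAP1. They were chosen by name with the MTX values of these arrays in view, and every probe annotated to a single one of these symbols with a value on at least 1 array was taken. This gave 11 probes for 9 genes, of 14904 genes with a value in the table. A probe with values on all 3 arrays existed for 8 of the 10 genes. PHLDA3 had a value on 1 array, and the expression of BTG2 was not analysed here. Because the MTX contrast chose these genes, their values are given as a description with no test.

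BEAS-2B is an established line of human bronchial epithelium, immortalised with a hybrid of adenovirus and simian virus whose large T antigen is known to bind p53. The cells were grown for 24 h and then held for 48 h in 0.144 µM MTX, stated to be the concentration that inhibits by 20%, while the control cells received the vehicle DMSO. MTX is written here as in the labels. Each of 3 two-colour arrays carried RNA of treated cells in Cy5 and RNA of DMSO cells in Cy3, so there is 1 group of 3 ratios, no dye-swapped array, and a dye effect of a probe is part of its value. Separate cultures are not stated, so the spread between arrays may be technical. Values are deposited log ratios, read as positive where RNA was higher with MTX, a direction that rests on the labelled dyes and is likely rather than settled. Which base the logarithm has is not given, and folds are given on a base 10 reading with the base 2 reading beside them. Ratios hold no expression level, so the identity of the line was not checked against marker genes.

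p53 is a transcription factor that is kept scarce by the ubiquitin ligase MDM2 and is stabilised when DNA is damaged. It then binds response elements made of repeated 10-base units and switches on inhibitors of the cell cycle. It also switches on its own inhibitors, MDM2 and the phosphatase PPM1D, which form negative feedback loops. In epithelial cells CDKN1A, the cyclin-dependent kinase inhibitor p21, is the classical arrest gene of this programme.

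The MDM2 gene is shown first, because its internal promoter carries the p53 elements that close the feedback loop. Promoter windows of 250 bases before to 50 bases after a start site, from RefSeq on GRCh38.p14, were found for 8 of the 10 genes, in 12 windows. They were searched for the p53 consensus of 20 bases, 2 repeats of 10 with no spacer, which reads alike on both strands. With up to 3 mismatches, 5.20% of 35116 windows of all genes held a match, and with up to 2 mismatches 0.649% did. Counted by gene, 6.39% of 27305 genes held a match with up to 3 mismatches and 0.820% with up to 2. Among the 8 genes with windows here 1 had a match, MDM2, in the windows of its internal start sites. The stretch of 118 bases at chr12:68808893-68809010, plus strand, is printed with both matches in capitals.
MDM2 internal promoter: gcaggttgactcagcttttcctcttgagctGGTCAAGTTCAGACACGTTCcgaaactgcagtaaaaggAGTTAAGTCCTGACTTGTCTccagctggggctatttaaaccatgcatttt
In the lines that follow, capitals mark the bases that fit the consensus. The first element of MDM2, at chr12:68808923-68808942, has 2 mismatches and the second, at chr12:68808961-68808980, has 3. They begin 94 and 56 bases before the first internal start site.
MDM2 first element: GGtCAAGTTCAGACAcGTTC
MDM2 second element: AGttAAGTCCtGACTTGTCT
The nearest stretches in the windows of PPM1D and CDKN1A, with the highest mean ratios beside MDM2, are given for contrast. PPM1D came no closer than 4 mismatches, at chr17:60599994-60600013, which 26.0% of all windows reach or better. CDKN1A came no closer than 5, at chr6:36678541-36678560, which 70.5% of all windows reach or better.
PPM1D nearest stretch: AAGCAAaCTaGGAgATGCgC
CDKN1A nearest stretch: tGGCcTGCTgGAACTcGgCC
A match is a run of letters and not a measured binding site, and elements farther from a start site lie outside such windows.

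Among the feedback genes, PPM1D and MDM2 gave large ratios and CCNG1 a small one. PPM1D, the phosphatase WIP1 that removes activating phosphates from p53 and its kinases, read 0.534, 0.554 and 0.617 on arrays 1, 2 and 3. All 3 arrays were close together and far above 0. The mean was 0.568 ± 0.0430 (SD, n = 3), 3.70-fold if base 10 and 1.48-fold if base 2. Only 5 of the 9394 genes with complete probes had a higher mean.

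MDM2, whose protein ubiquitinates p53 and sends it to the proteasome, read 0.381, 0.300 and 0.546 on its complete probe (feature number 10837). Array 3 was well above the other arrays, and all were above 0. The mean was 0.409 ± 0.126 (SD, n = 3), 2.56-fold if base 10 and 1.33-fold if base 2, and 92.8% of all tested genes had a smaller SD. Its second probe (feature number 12588) read 0.323 on array 1 and 0.343 on array 2 and had no value on array 3, the array on which the complete probe was highest. Without array 3 the mean of the complete probe was 0.340. On the arrays that both probes share, they differed by 0.0572 on array 1 and 0.0431 on array 2.

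CCNG1, cyclin G1, recruits the phosphatase PP2A to MDM2 and is known as a modulator of p53. It read 0.102, 0.0762 and 0.113, all above 0 and close together. The mean was 0.0972 ± 0.0189 (SD, n = 3), 1.25-fold if base 10 and 1.07-fold if base 2. Its ratio was small, and 18.3% of tested genes had a higher mean.

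Among the genes that act on the cycle itself, CDKN1A read 0.467, 0.407 and 0.306 on its complete probe (feature number 41848). Array 1 was the highest and array 3 the lowest, the reverse of the order of PPM1D. The mean was 0.393 ± 0.0814 (SD, n = 3), 2.47-fold if base 10 and 1.31-fold if base 2, and 26 tested genes had a higher mean. A second CDKN1A probe (feature number 30496) had a value on array 2 alone, -0.0345, where the complete probe read 0.407. The probes of this gene therefore disagree on the array they share, and its positive mean rests on 1 probe.

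GADD45A, a stress protein that binds p21, PCNA and the mitotic kinase CDK1, read 0.200, 0.250 and 0.236. The arrays lay close together, and the mean was 0.229 ± 0.0256 (SD, n = 3), 1.69-fold if base 10 and 1.17-fold if base 2. The stress-responsive polo-like kinase PLK3 read 0.153, 0.201 and 0.215, with a mean of 0.190 ± 0.0327 (SD, n = 3), 1.55-fold if base 10 and 1.14-fold if base 2. Both genes were above 0 on every array, with 2.69% and 4.77% of tested genes above their means.

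PLK2, another polo-like kinase and a p53 target in the checkpoint response, gave values near 0. It read 0.0549, -0.00216 and -0.0252, on both sides of 0, with a mean of 0.00916 ± 0.0412 (SD, n = 3). Its mean lay near the middle of all genes, 49.2% of which were higher, and without array 1 it was -0.0137.

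The last members protect cells or restrain growth signals. TRIAP1, a small protein of the mitochondrial intermembrane space that is known to favour survival, read 0.107, 0.0229 and 0.106. Array 2 was well below the others but above 0, and the mean was 0.0788 ± 0.0484 (SD, n = 3), 1.20-fold if base 10 and 1.06-fold if base 2. With array weights its mean was 0.0410. PHLDA3, which competes with the kinase AKT for membrane lipids, had a value on array 2 alone, -0.139, so no spread can be given. The array 2 values of PHLDA3 and of the second CDKN1A probe were the lowest of the 11 probes, and both came from probes without values on the other arrays.

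**Figure D1:**
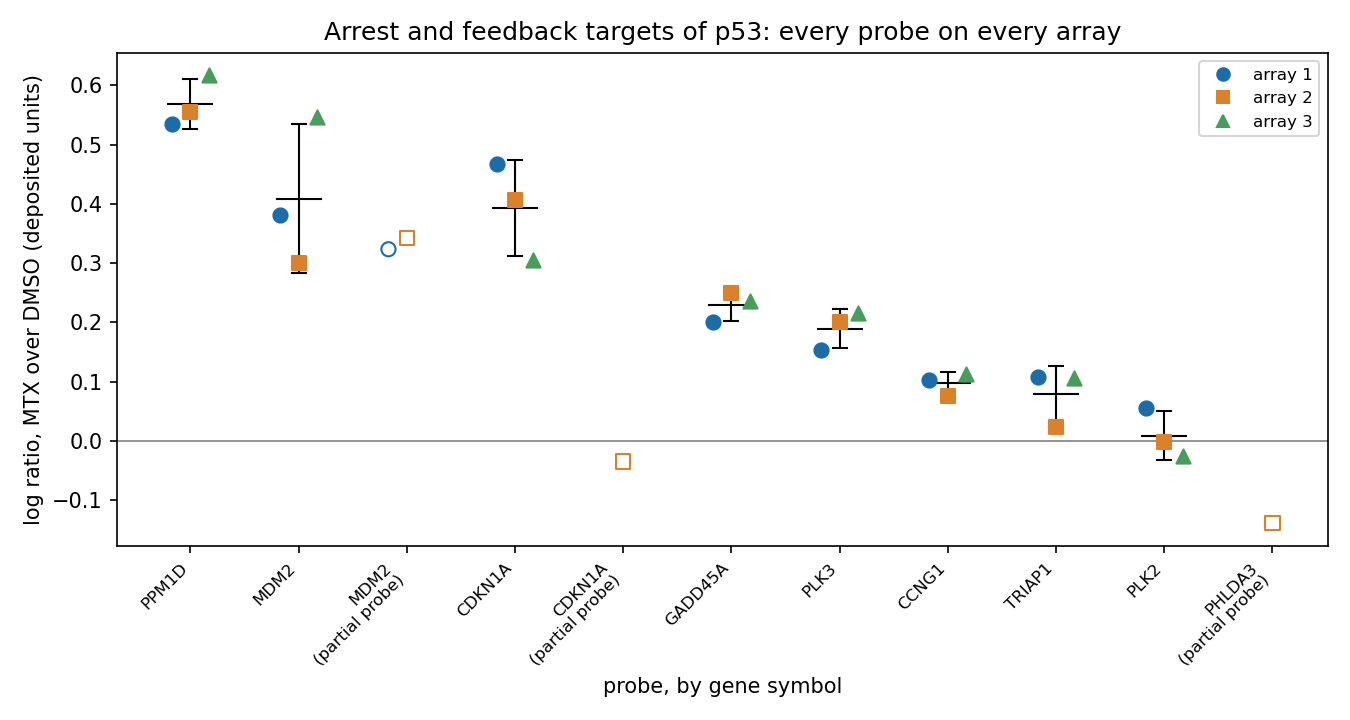
Log ratio of MTX over DMSO (vertical axis, deposited units) for each of the 11 probes with a value, by gene. Symbols are arrays 1 to 3, open symbols are probes without a value on all 3 arrays, and bars are the mean and SD of complete probes; PPM1D, MDM2 and CDKN1A lie highest, PLK2 straddles 0, and the single values of PHLDA3 and of the second CDKN1A probe lie below 0.

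Of the 8 complete members, 7 were above 0 on all 3 arrays, as were 34.3% of all tested genes. In a fit across all 9394 genes (limma, adjusted p under 0.05), 16.6% of genes were called higher and 12.4% lower. Calls of the members are left out and nothing is read from the count above 0, since the genes were chosen on this contrast. The median of the 8 means was 0.209 ± 0.0282 (SD of the 3 array medians), with array medians of 0.176, 0.225 and 0.226, against a median of 0.00742 over all genes. The members were highest on array 1 in 3 cases, on array 2 in 1 and on array 3 in 4, so no array was high for all of them.

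The order of the means was PPM1D, MDM2, CDKN1A, GADD45A, PLK3, CCNG1, TRIAP1 and PLK2. PPM1D exceeded MDM2 on all 3 arrays, by 0.159 ± 0.0923 (SD, n = 3), although the ranges of their values overlapped. MDM2 and CDKN1A could not be ordered: their difference was 0.0157 ± 0.195, with MDM2 higher on 1 array of 3. CDKN1A exceeded GADD45A by 0.165 ± 0.0987 with no overlap. On array 3 this gap was 0.0701, smaller than the 0.102 between PLK3 and CCNG1 there, and the place of CDKN1A rests on 1 probe. The 3 highest means were not set apart as a group, since PPM1D stood nearly as far above MDM2. GADD45A was above PLK3 on each array by a small 0.0391 ± 0.0158, and PLK3 was above CCNG1 by 0.0924 ± 0.0381 with no overlap. CCNG1 and TRIAP1 differed by 0.0184 ± 0.0308, within their spread. TRIAP1 was above PLK2 on all 3 arrays, by 0.0697 ± 0.0554, with overlapping ranges.

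**Figure D2:**
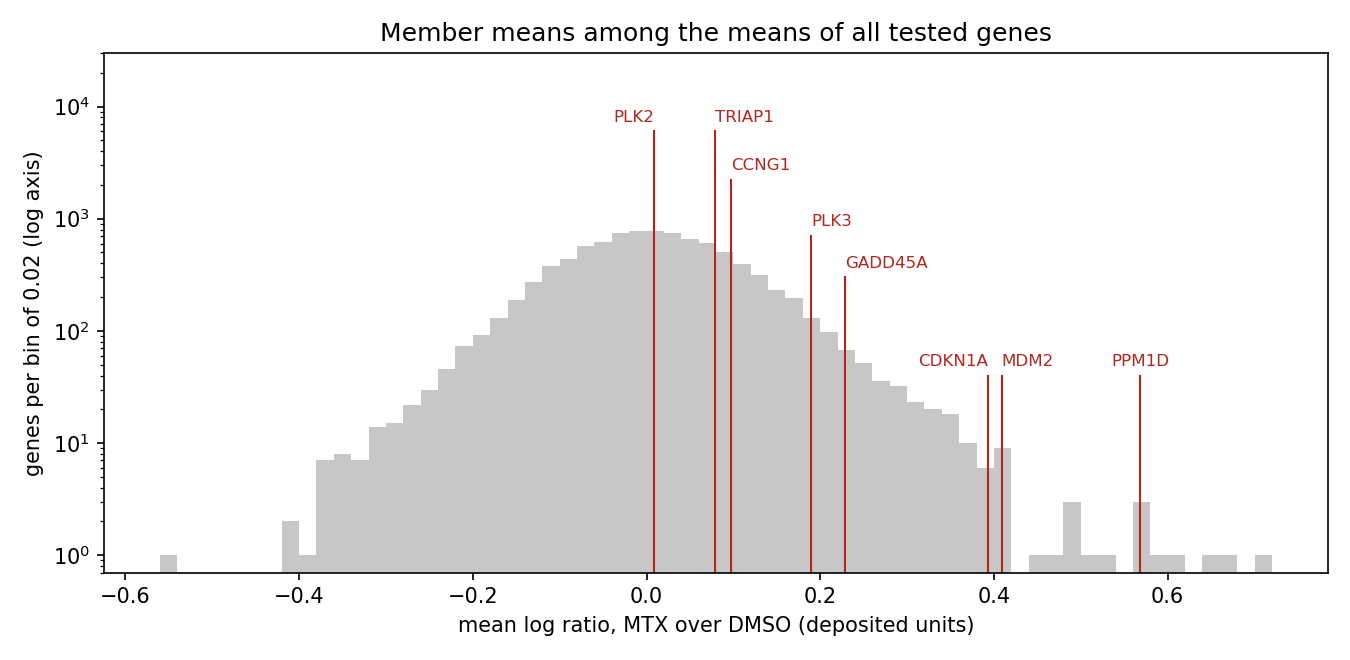
Mean log ratio (horizontal axis, deposited units) of the 9394 tested genes, in bins of 0.02, with the number of genes per bin on a log axis; red lines mark the 8 complete members. PPM1D, MDM2 and CDKN1A stand in the sparse upper tail, and PLK2 stands at the centre.

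The ratios also appeared to vary with the place of a spot on the array, a reading that rests on an inferred layout. The row length was taken from the ratios themselves, as the step in feature number at which they correlated most. This gave 215 spots per row, with a mean r of 0.243 over the 3 arrays, which is the maximum that set the row length. On this inferred grid, the mean of the spots within 7 rows and columns was computed around each member. Over the 8 complete members it ran from -0.0724 around CDKN1A on array 3 to 0.0879 around PPM1D on array 2, and around PHLDA3 it was -0.0436 on array 2, where that gene had its value. With these local means removed, PPM1D averaged 0.520 ± 0.0608, CDKN1A 0.424 ± 0.0494 and MDM2 0.365 ± 0.148 (SD, n = 3). The same 3 genes had the highest means, but the mean of CDKN1A now stood above that of MDM2. On array 3 MDM2 was still higher, with 0.530 against 0.379, so the 2 genes could not be ordered here either. GADD45A averaged 0.182 ± 0.0223, PLK3 0.178 ± 0.0432, TRIAP1 0.106 ± 0.0537, CCNG1 0.0713 ± 0.0737 and PLK2 -0.00135 ± 0.0203. The same 7 genes were above 0 on all 3 arrays, as were 33.8% of all genes after the same step. CCNG1 became uneven, with 0.0431, 0.0160 and 0.155 on arrays 1, 2 and 3.

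**Figure D3:**
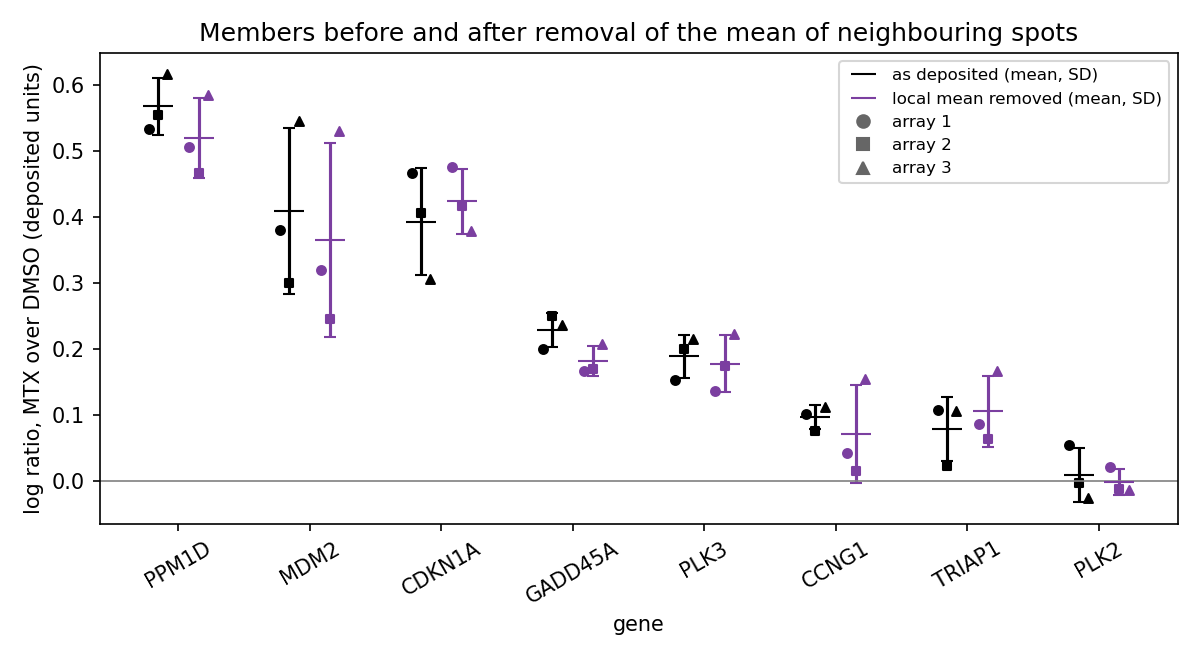
Log ratio (vertical axis, deposited units) of the 8 complete members as deposited (black) and after the mean of neighbouring spots was removed (purple). Symbols are the 3 arrays and bars the mean and SD. PPM1D goes from 0.568 to 0.520, the means of MDM2 and CDKN1A exchange places while their values overlap, and CCNG1 spreads out.

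Several members have relatives with similar proteins, and these families gave mixed ratios. Of 17 measured relatives, 7 rose, 1 fell and 9 did not pass (limma, adjusted p under 0.05). The share called was 47.1%, beside 29.0% of all genes. The median of the relatives was 0.0571 against 0.00742 over all genes. Beside PPM1D, PPM1A and PPM1B rose by 0.105 ± 0.0205 and 0.102 ± 0.0265 (adjusted p = 0.0264 and 0.0307). PPM1G and PPM1K did not pass (adjusted p = 0.649 and 0.0508). The 3 complete probes of PPM1A were uneven, reading 0.0229, 0.270 and 0.0555 on array 1. TOB1 also rose (0.189 ± 0.0692, adjusted p = 0.0202). The PPM relatives and TOB1 were picked after their values were seen. Beside CDKN1A, the inhibitor CDKN1C (p57) rose by 0.183 ± 0.0214 (SD, n = 3, adjusted p = 0.0110), whereas CDKN1B (p27), picked after its value was seen, averaged -0.0259 ± 0.00680 on its complete probe and did not pass (adjusted p = 0.354). A second CDKN1B probe disagreed, with -0.468 and -0.607 on arrays 1 and 2 and no value on array 3. Beside GADD45A at 0.229, GADD45B averaged -0.0136 ± 0.0310 (adjusted p = 0.667), and its 2 probes were near 0 on arrays 1 and 2 but at 0.0568 and -0.155 on array 3. PLK1, the mitotic polo-like kinase, averaged -0.0836 ± 0.0432 and did not pass (adjusted p = 0.0666), although it did with array weights (-0.111, adjusted p = 0.00579) and with probes on at least 2 arrays (-0.144, adjusted p = 0.0488). With the local mean removed it averaged -0.0422 (adjusted p = 0.255). Its mean lay below those of PLK3, 0.190, and PLK2, 0.00916. A second PLK1 probe read lower, with -0.275 and -0.252 on arrays 1 and 2, where the complete probe read -0.0403 and -0.127. It had no value on array 3.

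Beside the small ratio of CCNG1, its relative CCNG2 rose by 0.212 ± 0.0826 (adjusted p = 0.0204) on 1 complete probe, while a second CCNG2 probe read 0.0345 on array 2 and -0.0757 on array 3. Both probes together gave 0.120 (adjusted p = 0.0402), with array 1 taken from the complete probe alone. The more distant cyclin CCNI fell by 0.142 ± 0.0201 (adjusted p = 0.0155) to a mean of -0.142. For the genes without complete probes the relatives were measured. PHLDA2, an imprinted relative of PHLDA3, read 0.318, 0.324 and 0.290 and rose by 0.311 ± 0.0183 (adjusted p = 0.00866), while PHLDA1 averaged 0.0571 ± 0.0406 (adjusted p = 0.141). PHLDA1 passed with array weights (0.0821, adjusted p = 0.00835) and without array 3 (0.0796, adjusted p = 0.0365). It averaged 0.0276 on the first of its complete probes (adjusted p = 0.557) and 0.0379 with the local mean removed (adjusted p = 0.324). BTG3, an antiproliferative relative of BTG2, read 0.246, 0.256 and 0.232 on its complete probe and rose by 0.245 ± 0.0119 (adjusted p = 0.00906). A second BTG3 probe read -0.0426 and 0.0344 on arrays 1 and 2. Both BTG3 probes together gave 0.160 (adjusted p = 0.0490), with array 3 taken from the complete probe alone. BTG1 averaged 0.0141 ± 0.0111 (adjusted p = 0.613). Without array 1 or array 2, limma called 0 relatives, with 9 and 8 at an unadjusted p under 0.05.

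**Figure D4:**
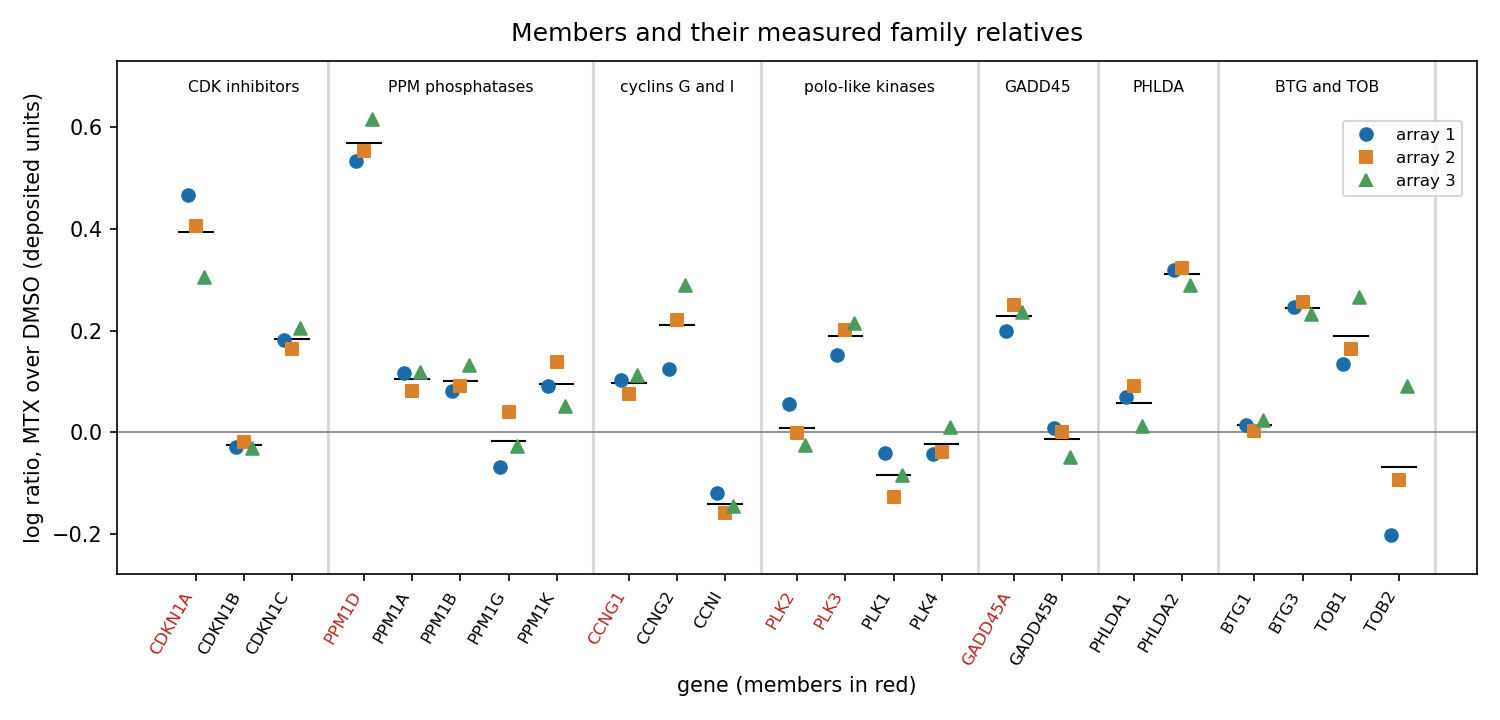
Log ratio (vertical axis, deposited units) of members (red names) and their measured relatives, grouped by family. Symbols are the 3 arrays and lines the mean; GADD45A at 0.229 lies apart from GADD45B at -0.0136, and PLK3 at 0.190 from PLK1 at -0.0836.

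The pathway around these genes was covered by 5 further lists, some of whose genes stand in more than 1. Without array 1 or array 2, limma called 0 genes of each, with 5 to 22 at an unadjusted p under 0.05. Of 18 measured p53 regulators, 3 rose, 3 fell and 12 did not pass, and the median was -0.0101. The share called was 33.3%, near the 29.0% of all genes (16.6% higher and 12.4% lower), so nothing is read from these counts. RPL11 and RPL5, ribosomal proteins known to bind MDM2 and restrain it, fell by 0.283 ± 0.0499 (adjusted p = 0.00971) and 0.102 ± 0.0162 (adjusted p = 0.0267). EP300, an acetyltransferase that is a coactivator of p53, rose by 0.209 ± 0.0606 (adjusted p = 0.0146), and RCHY1, a ubiquitin ligase of p53 like MDM2, rose by 0.155 ± 0.0678 (adjusted p = 0.0285). The 3 probes of RPL5 were uneven, 1 of them reading 0.0588 on array 3, and its first probe alone gave -0.191 (adjusted p = 0.0120). With probes on at least 2 arrays RPL5 and RCHY1 did not pass (adjusted p = 0.0525 each). SIRT1 (higher), picked after its value was seen, and 1 gene that fell complete the calls. MDM4, the partner of MDM2, had no complete probe, and 2 of its 3 partial probes read 0.183 and -0.244 on array 1.

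In the list of cyclins, CDKs and CDC25 phosphatases, which is not confined to partners of CDKN1A, genes were called in both directions. Of 16 measured genes of this list, 5 rose, 2 fell and 9 did not pass, with a median of 0.00120. The share called was 43.75%, beside 29.0% of all genes. CDK4, which p21 binds in G1, fell by 0.201 ± 0.00489 (adjusted p = 0.00976), while CDK6 rose by 0.174 ± 0.0241 (adjusted p = 0.0118) and cyclin D1, CCND1, by 0.166 ± 0.0424 (adjusted p = 0.0159). CCND1 did not pass with probes on at least 2 arrays (adjusted p = 0.0626). CDK1, which GADD45A binds, and its partner CKS2 rose by 0.166 ± 0.0291 and 0.172 ± 0.0134 (adjusted p = 0.0133 and 0.0111). CDC25B (higher) and CCNA2 (lower) were picked after their values were seen. CCNE1 averaged -0.00255 ± 0.0410 (adjusted p = 0.941), and CDK2 had a value on array 2 alone, 0.0597. PCNA, the DNA clamp that p21 and GADD45A both bind, averaged 0.0562 ± 0.0263 (adjusted p = 0.113) and passed with array weights (0.0634, adjusted p = 0.0162).

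Of 17 other CDK inhibitors and RB-E2F genes, 6 rose and 0 fell by limma, 1 gene was lower at an unadjusted p under 0.05, and 1 was called lower after removal of the local mean. The median was 0.0150, and 11 genes did not pass. The share called was 35.3%, beside 29.0% of all genes. E2F8 and E2F7, repressors of the E2F family, of which E2F7 is known as a p53 target, rose by 0.417 ± 0.0410 and 0.280 ± 0.0227 (adjusted p = 0.00866 each). The mean of E2F8 stood beside 0.409 for MDM2. The inhibitor CDKN2B (p15) rose by 0.172 ± 0.0436 (adjusted p = 0.0155).

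Of 32 measured genes known to be lowered through p21 and the DREAM repressor complex, 7 rose, 4 fell and 21 did not pass. The median was 0.0115. The share called was 34.4%, near the 29.0% of all genes, so nothing is read from these counts. The helicase subunits MCM2 and MCM5 and the lamin gene LMNB1 fell to means of -0.379 ± 0.100, -0.264 ± 0.0328 and -0.375 ± 0.0795 (adjusted p = 0.0106, 0.00971 and 0.00971). CCNA2 was the remaining gene that fell. Genes of mitosis were among those that rose, such as the cytokinesis motor KIF23 (0.177 ± 0.0344, adjusted p = 0.0128) and CDK1.

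Of 32 other measured p53 targets, 18 rose, 1 fell and 13 did not pass, with a median of 0.144 against 0.209 for the 8 members. The share called was 59.4%, beside 29.0% of all genes. This list was drawn up with earlier results for p53 targets in these data known, so its direction is not independent evidence. FAS, a death receptor, read 0.574, 0.541 and 0.572 and rose by 0.562 ± 0.0185 (adjusted p = 0.00866), close to PPM1D. ACER2, an alkaline ceramidase, rose by 0.674 ± 0.102, BLOC1S2, a lysosome-positioning subunit, by 0.366 ± 0.0392 and TRIM22, an antiviral ubiquitin ligase, by 0.275 ± 0.0233 (adjusted p = 0.00866 each). BAX, picked after its value was seen, was the gene that fell.

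**Figure D5:**
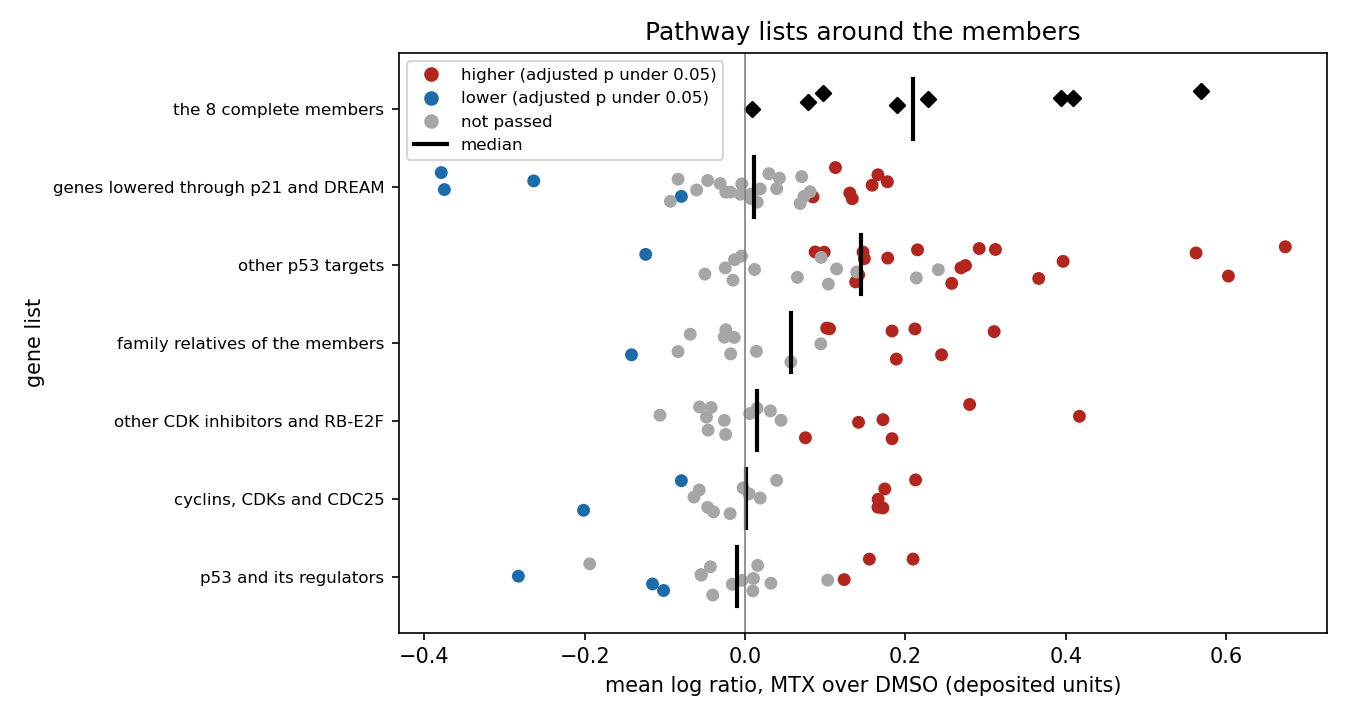
Mean log ratio (horizontal axis, deposited units) of the measured genes of 6 lists and of the 8 complete members (black diamonds). Red and blue are genes called higher and lower by limma at adjusted p under 0.05, grey did not pass, and black lines are medians, 0.209 for the members and 0.144 for the other p53 targets.

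By Euclidean distance over the 3 arrays, 5 genes outside the members lay closest to the members' median profile. They were GSKIP, an inhibitor of the kinase GSK3-beta (distance 0.0178), the sterol acyltransferase SOAT1 (0.0182), the nucleotide kinase CMPK1 (0.0194), the myotubularin relative MTMR11 (0.0220) and the transcription factor NFIL3 (0.0233). GADD45A and PLK3 lay at 0.0356 and PPM1D at 0.624, so the median profile is that of the middle members and not of the highest. The first probe of GSKIP alone averaged 0.116.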

How the data were processed

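Total RNA of MTX-treated and DMSO-treated BEAS-2B cells was compared on 3 two-colour arrays. Per the labels and the design text, the authors used FairPlay labelling and GenePix scanning, then subtracted the local median background and applied LOWESS normalisation. The deposited values are log ratios, 1 per probe and array, taken as log10 for folds, although the base is not stated. Their medians were 0.00137, 0.00222 and 0.00194, so centring is close to 0, and the direction could not be set against scanner values.

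Of 31615 probes, 17569 had values on 3 arrays. A single symbol was annotated for 22472 probes, while 80 had several and 9063 had none. Complete probes with 1 symbol were averaged per gene and array (9394 genes) and fitted by limma (version 3.58.1, under R 4.3.3; lmFit, then eBayes), two-sided against 0, with Benjamini-Hochberg adjustment over all genes. The scripts were tested on simulated data. No depth applies to ratios, and the 3 arrays limit the precision.

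The members and lists were chosen with earlier results of these data known. Named were all members, the 4 genes with the smallest p among the called genes of each list, MDM4, CDK1, CDK2, CDK4, CCND1, CCNE1, PLK1, CCNG2, GADD45B, BTG1, PHLDA1 and PCNA, and the 5 genes nearest to the members' median profile; 1 further gene of this rule is not reported here. CDKN1B, PPM1A, PPM1B, PPM1G, PPM1K, TOB1, SIRT1, CDC25B, CCNA2 and BAX were named outside this rule, after their values were seen. Alternatives covered the probe rule, completeness, centring, scaling, array weights, the spread model, the local mean and leaving out arrays. Figures were drawn with matplotlib 3.10.9.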

Additional observations from a re-analysis of the deposited data

How the results depend on the processing

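The median of the 8 means was 0.180 with the local mean removed and ranged from 0.201 to 0.225 when an array was left out, and 7 members were above 0 on every array used in each of these settings. PPM1D, GADD45A and CCNG1 moved by more than their SD with the local mean removed, to 0.520, 0.182 and 0.0713. The mean of TRIAP1 was 0.0410 with array weights, against 0.0788. PLK2, near 0, turned to -0.00135 with the local mean removed and to -0.0137 without array 1. Over all genes 2726 were called (1557 higher, 1169 lower). Probes on at least 2 arrays gave 1633 (958 and 675), array weights 5801 (3176 and 2625) and single probes 5350 (2675 and 2675). Leaving out an array gave 0 to 4287 calls (0 to 2372 higher, 0 to 1915 lower): 0 without array 1 or array 2, with 2938 and 2387 genes at an unadjusted p under 0.05. Without array 3, which also leaves 2 arrays, 4287 were called. The cause of these moves was not tested.

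The list counts that moved were these. For p53 regulators, probes on at least 2 arrays gave 1 higher and 1 lower, array weights 6 lower and single probes 5 lower. For cyclins and CDKs, the first complete probe and probes on at least 2 arrays gave 1 lower each, and array weights 6. For CDK inhibitors and RB-E2F, array weights gave 3 lower and the local mean 1. For the relatives, probes on at least 2 arrays gave 2 lower and array weights 3. For other p53 targets, array weights and single probes gave 2 lower each. For genes lowered through p21 and DREAM, array weights gave 11 higher and 7 lower. When an array was left out, the calls ranged from 0 to 4 higher and 0 to 4 lower for p53 regulators, 0 to 5 and 0 to 3 for cyclins and CDKs, 0 to 7 and 0 to 1 for CDK inhibitors and RB-E2F, 0 to 9 and 0 to 2 for relatives, 0 to 19 and 0 to 2 for other p53 targets, and 0 to 9 and 0 to 4 for genes lowered through p21 and DREAM. No paired analysis was possible because the 3 arrays form a single group of ratios. Intensities were not used here, so signal over background could not be set beside a value.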
